A study of Mus musculus with 26 samples.

Results

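The 10 genes Acta2, Myh11, Myl9, Mylk, Cald1, Cnn1, Tagln, Smtn, Lmod1 and Des encode the contractile apparatus of arterial smooth muscle. They were picked by symbol from the deposited expression tables, and all 10 were among the 57010 genes of the counts table and the 21031 genes of the normalized table. RNA was sequenced from mesenteric arteries, the small vessels that feed the gut, of male mice aged 8 weeks in lines altered in pannexin 1 (Panx1), a membrane channel that releases ATP. The 26 libraries formed 8 groups: the wild type with 3 libraries and the global Panx1 knockout with 3, then mutants Y198F+/+ (3) beside controls Y198F-/- (3), mutants S205A+/+ (4) beside controls S205A-/- (4), and mutants Y308F+/+ (3) beside controls Y308F-/- (3). Y198F and Y308F replace a tyrosine of the channel with phenylalanine and S205A replaces a serine with alanine. The controls are littermates or wild-type mice, and no strain or treatment is given in the labels. The series text speaks of 3 vascular trees per genotype while the S205A groups hold 4 libraries each, and the labels do not tie a library to an animal, so the p-values measure the spread between these samples.

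A smooth muscle cell shortens when calcium and calmodulin switch on myosin light chain kinase (Mylk), which phosphorylates the regulatory light chain (Myl9) of smooth muscle myosin (heavy chain Myh11), so that myosin pulls on filaments of smooth muscle alpha-actin (Acta2). Caldesmon (Cald1) and calponin (Cnn1) sit on actin and restrain myosin, transgelin (Tagln) and smoothelin (Smtn) bind and organise actin, leiomodin 1 (Lmod1) starts new actin filaments, and desmin (Des) forms intermediate filaments that tie the apparatus together. The genes are commonly used as markers of contractile smooth muscle, and many are switched on by serum response factor with its partner myocardin through the CArG box, a short motif in their promoters. In bulk arteries, fewer muscle cells and less RNA per muscle cell cannot be told apart.

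The CArG box is shown first because it is the sequence these promoters are best known to share. It was searched on both strands of the 300 bases before each transcript start of GENCODE vM39 on GRCm39. In front of the canonical start it was present in 2 of the 10 genes, Tagln and Cald1, against 1.69% of 21770 protein-coding genes, and in front of any coding transcript start it was present in 5 of the 10 (also Acta2, Cnn1 and Myl9) against 3.26%. The share of all genes was not matched for the number of starts per gene, which raises the chance of a match. The boxes that lay outside the exons of their gene are printed 5′ to 3′ in the direction of transcription with 25 bases on each side, the box in capitals.
Tagln, chr9:45847434-45847493, minus strand: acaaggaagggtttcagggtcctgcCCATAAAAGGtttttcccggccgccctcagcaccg
Acta2, chr19:34231663-34231722, minus strand: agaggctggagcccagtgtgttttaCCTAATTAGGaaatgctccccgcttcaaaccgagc
Cnn1, chr9:22011397-22011456, plus strand: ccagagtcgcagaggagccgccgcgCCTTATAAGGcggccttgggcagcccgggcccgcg
Cald1, chr6:34575159-34575218, plus strand: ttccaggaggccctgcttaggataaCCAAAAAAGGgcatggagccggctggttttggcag
The box began 64 bases before the Tagln start, 67 before an alternative start of Acta2 and 66 before an alternative start of Cnn1. That of Cald1 lay farther out, 251 bases before the canonical start. A match describes these letters only, and a window without one says nothing of the factor.

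The loci differ in how cleanly reads can be assigned to a gene. Tagln (ENSMUSG00000032085, chromosome 9, 45840909 to 45847404, minus strand) shares 1364 of its 2044 exonic bases, 66.7%, with genes on the other strand: 1241 with the long noncoding RNA Gm48529 and 123 with Pcsk7. It held 554 to 2958 counts per library. Cald1 (ENSMUSG00000029761, chromosome 6, 34575435 to 34752408, plus strand) shares no exonic base with another gene. Cnn1 (ENSMUSG00000001349, chromosome 9, 22010512 to 22020926) shares 35.1% of its exonic bases with Elof1, and Smtn (ENSMUSG00000020439, chromosome 11, 3467520 to 3490612) shares 19.8% with 4 genes, mostly the noncoding RNA Gm11946. In the other 6 genes the overlap was between 0% and 9.33%. No run of 150 bases, the read length, in any of the 10 canonical transcripts was found in a gene elsewhere in the genome. The labels do not state how reads in shared bases or on the opposite strand were counted, so the level of Tagln, and to a lesser extent that of Cnn1 and Smtn, is uncertain.

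Total counts ran from 14895969 to 23617902 per library, and the 10 genes together took 2.75% to 5.42% of them, so counting error was small beside the spread between libraries. The names of 9 libraries hold a number starting with 22, and these are referred to as the 22 series: all 3 Y198F mutants, mutants 2 to 4 of S205A and controls 1 to 3 of that line. Annotated ribosomal RNA took 0.0831% to 0.139% of counts in these 9 and 2.32% to 7.09% in the other 17, and the labels give no meaning for that number. Panx1 had 11, 20 and 27 counts in the knockout libraries and 61 to 96 in the wild type. Within or next to the knockout range were also S205A controls 1 and 3 (16 and 28), S205A mutant 4 (29) and Y308F control 3 (32). All 14 genes of an arterial mural list (among them Notch3, Mcam and Pdgfrb) were detected in every library. Of the lists for tissue next to the arteries, 4 of 7 gut muscle genes (among them Actg2 at 8544 to 21681 counts, a gene that vascular muscle also uses), 3 of 6 gut epithelial genes (Lgals4 highest, at 142 to 347 counts) and 6 of 11 striated muscle genes (Acta1 highest, at 219 to 1406 counts) were detected in every library. Barx1, a regulator of gut smooth muscle, was at 0 counts in 25 of 26 libraries, the epithelial marker Epcam in 24 and the skeletal myosin gene Myh4 in all 26. In S205A control 1 the summed level of 10 endothelial genes was 1372 CPM (counts scaled to a common library size, with TMM factors), against 3463 to 11090 CPM in the other 25 libraries.

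At baseline the 10 genes spanned a wide range of levels. Between genes, levels were compared as CPM per kilobase of exon in the 10 control libraries outside the 22 series. Acta2 was highest, at 3335 ± 569 (SD, n = 10), and ranked 17 of 56310 genes. Myl9 followed at 1705 ± 261 (SD, n = 10) and Myh11 at 1630 ± 327 (SD, n = 10), which lie within their spread of each other on this length, so actin, light chain and heavy chain led. The middle group held Des at 366, Lmod1 at 301, Cnn1 at 298, Cald1 at 290, and Mylk at 238 CPM per kilobase, followed by Smtn, with SDs from 33.4 to 60.3, and of these Des stood above Lmod1, Cnn1 and Cald1 by more than either SD, while those 3 lay within their spread of each other. Tagln was lowest at 21.3 ± 5.03 (SD, n = 10) and ranked 1492, next to the overlap of its exons given above. The length used matters most for Cald1, whose merged exons have 13571 bases and whose canonical transcript has 4848: per kilobase of canonical transcript it stood at 810 ± 163 (SD, n = 10) and took the 4th place. On that length Myl9, at 2823 ± 432 (SD, n = 10), stood above Myh11, at 1892 ± 379 (SD, n = 10), by more than either SD, and Des, at 601 ± 95.4 (SD, n = 10), stood above Mylk, Cnn1 and Lmod1, which lay between 301 and 343.

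Across the 8 groups most neighbouring levels lay within their spread. The highest group mean exceeded the lowest by 1.24-fold for Mylk, 1.25-fold for Myh11 and 1.48-fold for Acta2, and by at most 1.89-fold for any gene other than Tagln, where the ratio was 2.9. Ordered by mean, neighbouring groups differed by more than the larger of their SDs in 2 of 70 steps: between S205A mutants and Y198F controls for Tagln, and between Y198F controls and Y308F mutants for Lmod1. Mean Acta2 ran from 9132 ± 878 CPM (SD, n = 3) in the knockout to 13509 ± 4356 CPM (SD, n = 4) in the S205A controls. Mean Myh11 ran from 10151 ± 1709 CPM (SD, n = 3) in Y198F mutants to 12727 ± 4011 CPM (SD, n = 3) in the wild type. The knockout had the lowest mean of the 8 groups for Acta2, Tagln, Cnn1, Des and Myl9, and the Y198F mutants had it for Myh11, Cald1, Lmod1 and Mylk.

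**Figure D1:**
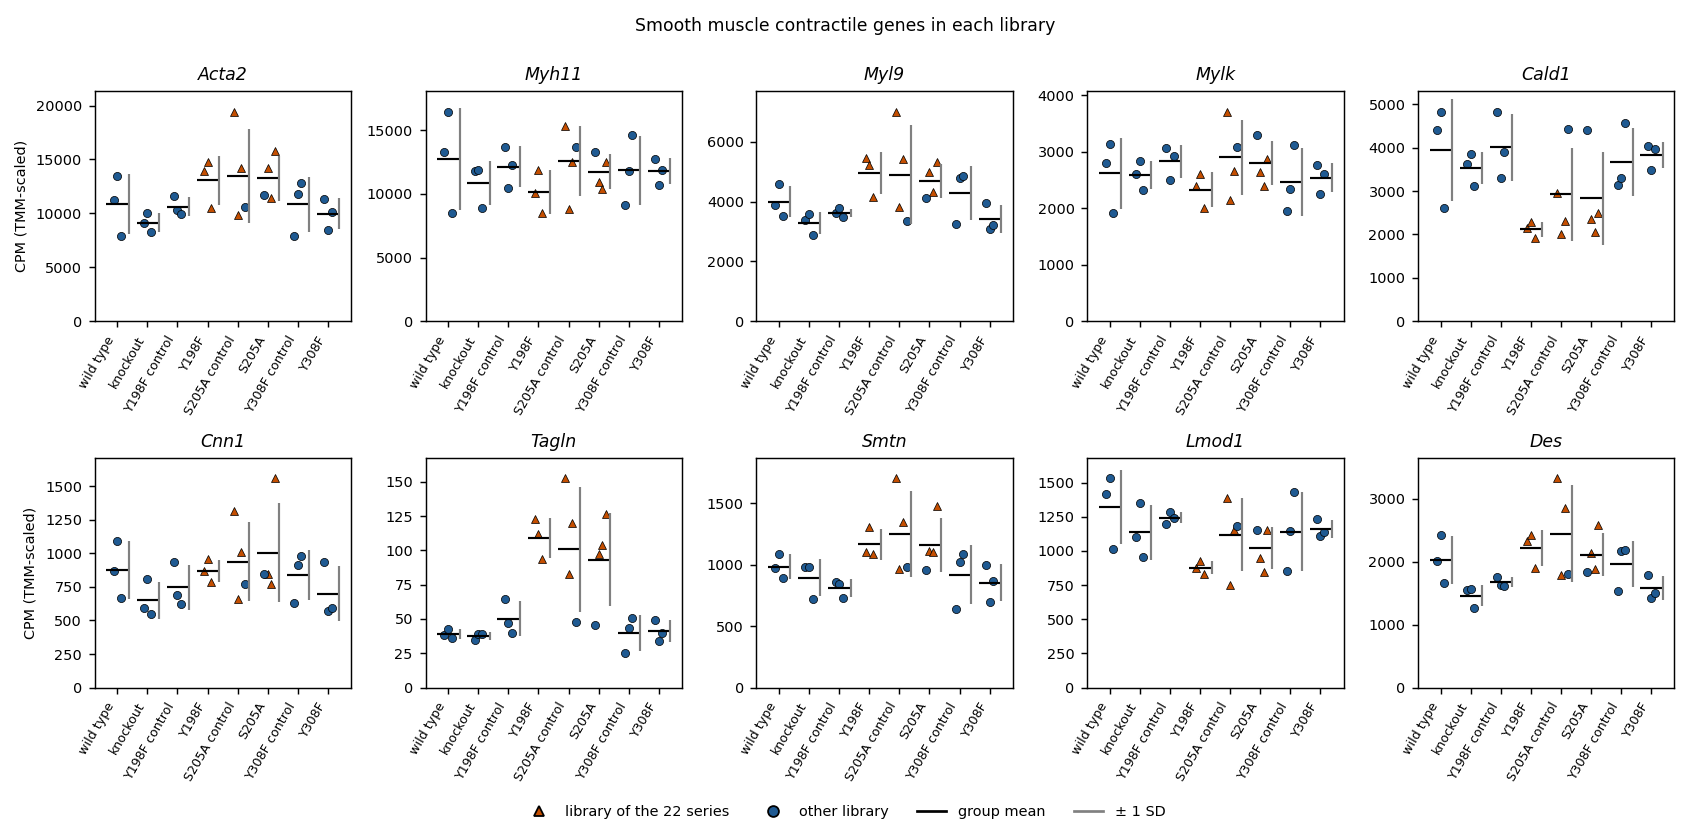
Level of each contractile gene in each of the 26 libraries, in CPM after TMM scaling; points are libraries (triangles, 22 series; circles, others), black lines are group means and grey bars are ± 1 SD. Tagln lies between 82.96 and 152.4 CPM in the 22 series and between 25.36 and 64.52 CPM elsewhere, whereas the other 9 genes overlap between the series.

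The Y198F comparison asks whether the loss of the tyrosine at this site goes with other levels of the contractile genes. Against the labelled controls, Tagln and Smtn were higher and Cald1 and Lmod1 were lower, and the remaining 6 genes did not pass the threshold. These 4 of 10 stand beside a background of 15.0% of 16050 genes past it (2411, of which 1532 were higher), by edgeR's quasi-likelihood test at an adjusted p under 0.05. The median log2 fold change of the 10 was 0.27, against -0.0028 for all genes. Since all 3 Y198F libraries and none of their controls are in the 22 series, the mutation and the series cannot be told apart here.

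Tagln, the actin-binding transgelin, had 122.6, 111.6 and 93.52 CPM in the Y198F libraries and 64.52, 46.7 and 39.59 CPM in their controls. The groups did not overlap, and its log2 fold change was 1.14 (SE 0.18, adjusted p = 0.00361 by edgeR). Smtn, the smoothelin gene of contractile cells, had 1104, 1309 and 1083 CPM in the mutants and 856.3, 845.4 and 728.7 CPM in the controls. Every mutant library lay above every control, with a log2 fold change of 0.54 (SE 0.13, adjusted p = 0.0164 by edgeR).

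Cald1, which holds myosin in check on the thin filament, moved the other way, with 2147, 2277 and 1926 CPM in the mutants and 4822, 3308 and 3894 CPM in the controls. The groups stood well apart, and the mutant mean was 52.8% of the control mean. The log2 fold change was -0.90 (SE 0.16, adjusted p = 0.00354 by edgeR). Lmod1, the actin nucleator, had 872.5, 928.9 and 832.2 CPM in the mutants against 1200, 1282 and 1243 CPM, again without overlap, and a log2 fold change of -0.48 (SE 0.11, adjusted p = 0.0161 by edgeR). For each of these 4 genes an exact permutation test, two-sided, gave p = 0.1, the lower limit for 3 against 3 libraries. Groups did not overlap in 6 of the 10 genes, the other 2 being Des and Myl9, beside 34.1% of all genes tested.

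Among the genes of the motor itself, Myl9 had 5448, 5232 and 4150 CPM in the mutants and 3604, 3772 and 3499 CPM in the controls, a log2 fold change of 0.46 (SE 0.14, adjusted p = 0.0522 by edgeR). Acta2 and Myh11 had values of opposite sign, 0.31 (SE 0.17) and -0.24 (SE 0.17), with overlapping groups. Mylk stood at -0.27 (SE 0.14), Cnn1 at 0.23 (SE 0.16) and Des at 0.42 (SE 0.13), with edgeR adjusted p-values of 0.25, 0.368 and 0.0531. Heavy and light chain thus lay on opposite sides of 0, as did the actin binders Tagln and Cald1.

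**Figure D2:**
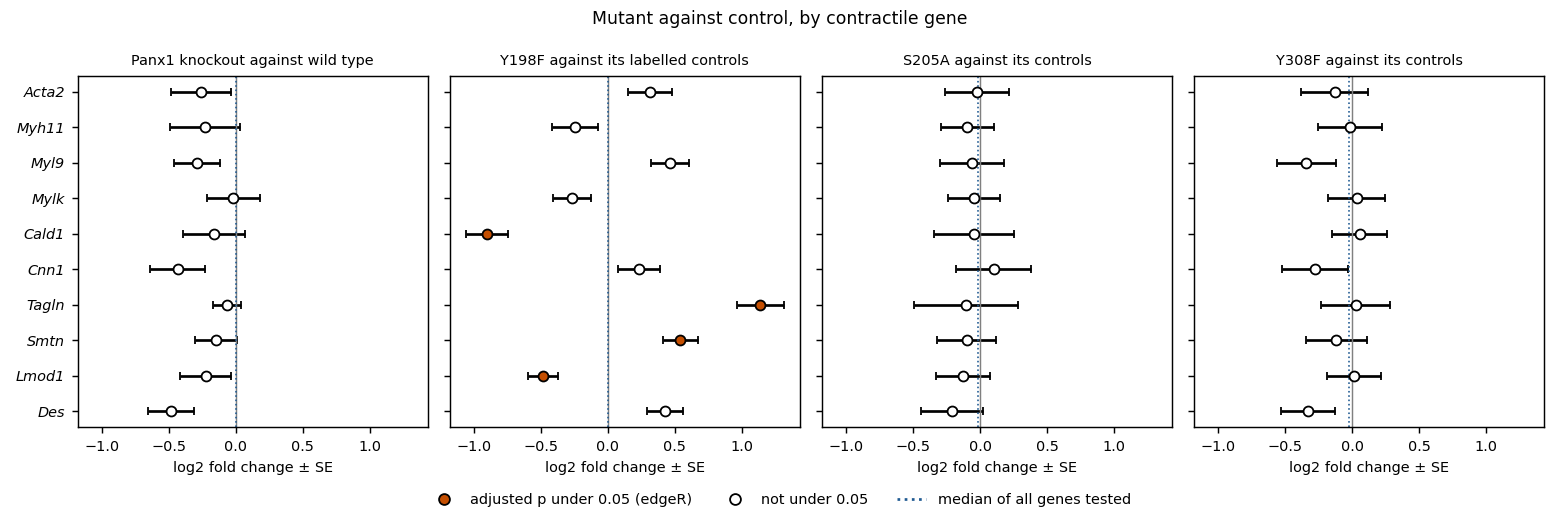
Log2 fold change of each contractile gene between mutant and control libraries in the 4 comparisons, with the SE as bars; filled points have an edgeR adjusted p under 0.05 and the dotted line is the median of all genes tested. In the knockout all 10 points lie below 0 without a call, in Y198F 4 are called in both directions, and in S205A and Y308F none is called.

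The library series can be measured only within the S205A line, where each group holds libraries of both series, and its coefficient was tested in a fit of all 8 groups, which share the estimate of spread. Tagln was higher and Cald1 lower in the 22 series, and 8 of 10 genes did not pass the threshold, beside 11.7% of 18715 genes called (2189). A fit of the S205A line alone called the same 2 genes, beside 5.74% of 15709 (902). Tagln had 152.4, 82.96 and 120.2 CPM in the 3 S205A controls of the 22 series and 47.55 CPM in the fourth. In the S205A mutants it had 97.1, 104 and 126.3 CPM in the 3 libraries of the 22 series and 45.81 CPM in the other. Each group was thus split by series, and the series coefficient was 1.31 (SE 0.24, adjusted p = 0.00121 by edgeR). Cald1 had 2950, 2018 and 2309 CPM in the S205A controls of the 22 series and 4435 CPM in the fourth, and 2363, 2062 and 2497 CPM in the mutants of the series and 4420 CPM in the other. Its coefficient was -0.88 (SE 0.19, adjusted p = 0.00311 by edgeR). Each of these 2 calls rests on a single library outside the series per group: without S205A control 4 neither was called (adjusted p = 0.0842 for Tagln and 0.112 for Cald1, beside 1.51% of all genes), and without S205A mutant 1 that of Cald1 was lost (adjusted p = 0.0767, beside 4.99% of all genes), while over all single libraries left out, S205A control 1 included, the coefficients stayed between 1.19 and 1.39 for Tagln and between -0.97 and -0.84 for Cald1.

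Side by side, the series coefficient, which comes from the S205A line, and the Y198F comparison, which shares no library with it, had the same sign in all 10 genes. Coefficient and Y198F value were 0.48 and 0.46 for Myl9, 0.42 and 0.42 for Des, 0.36 and 0.31 for Acta2, and 0.42 and 0.54 for Smtn. They were -0.18 and -0.24 for Myh11, -0.20 and -0.27 for Mylk, and -0.15 and -0.48 for Lmod1. When the series was added as a covariate over all 8 groups, none of the 10 genes was called in Y198F by edgeR (0 at an unadjusted p under 0.05, beside 0 of 18715 genes called and 438 at an unadjusted p under 0.05), and their median log2 fold change was -0.05. That fit takes the series effect from the S205A line, with a single library outside the series per group. A lack of calls in it therefore does not show a lack of difference. Against the 3 S205A controls of the 22 series, which share the series but not the line, again none was called (0 at an unadjusted p under 0.05) and all 10 values were negative, from -0.32 for Lmod1 to -0.12 for Tagln, with a median of -0.20 against -0.00945 for all genes. In that contrast 0 of 15879 genes passed the threshold, with 492 at an unadjusted p under 0.05. The common sign depended on S205A control 1, the library low in endothelial genes. Without it, an alternative added after seeing the data, 5 of 10 values were negative and the median was -0.00864. The values ran from -0.11 for Lmod1 to 0.12 for Acta2, and again none was called (0 at an unadjusted p under 0.05). The controls left included S205A control 2, at the opposite extreme with 11090 CPM of endothelial genes and a mean contractile deviation of -0.448. This contrast was not fitted without S205A control 2. A fit of all 8 groups without the series term also called none of the 10 (5 at an unadjusted p under 0.05, Tagln adjusted p = 0.0659, Cald1 adjusted p = 0.0556), beside 4.93% of all genes called and 21.6% at an unadjusted p under 0.05, and DESeq2 called Tagln and Cald1 of the 10, beside 7.73% of all genes. Leaving out Y198F control 3 left 2 genes called, Tagln and Cald1, beside 5.43% of all genes, and leaving out Y198F mutant 3 gave 6, with Des and Myl9 added, beside 12.6%. Without Y198F mutant 1 the call of Lmod1 was lost (edgeR adjusted p = 0.0522, beside 12.8% of all genes called), and without Y198F mutant 2 that of Smtn was lost (edgeR adjusted p = 0.0658, beside 9.97%).

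**Figure D3:**
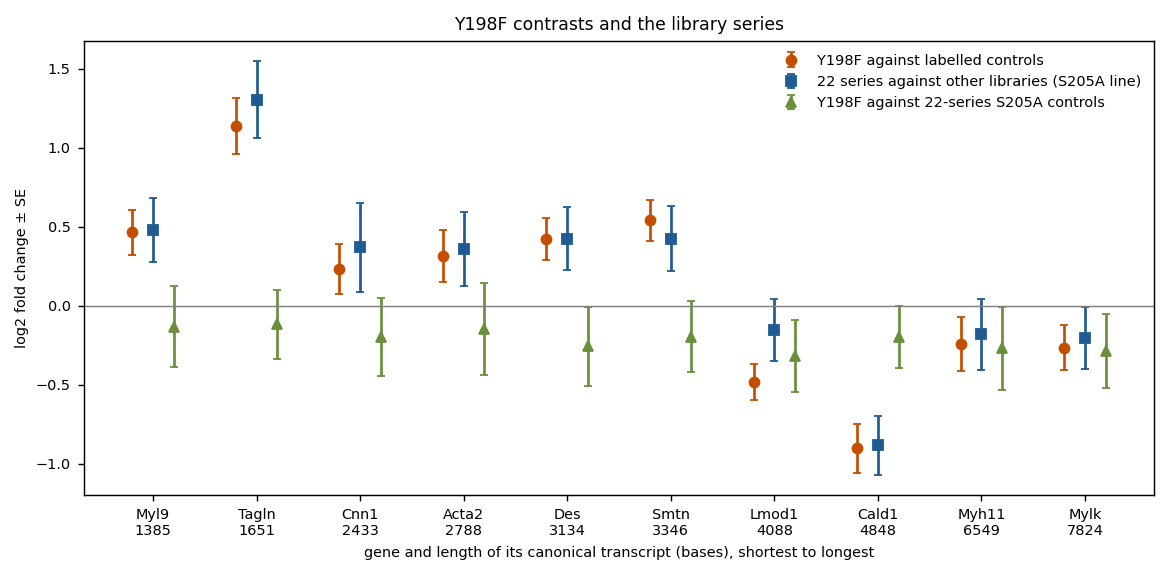
Log2 fold changes with SE for 3 contrasts, with the genes ordered by the length of their canonical transcript: Y198F against its labelled controls (circles), the 22 series against other libraries within the S205A line (squares), and Y198F against the S205A controls of the 22 series (triangles). Circles and squares lie above 0 for the 6 shorter transcripts and below 0 for the 4 longer ones, and the triangles lie between -0.32 and -0.12.

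The direction of the 10 genes ran with the length of their canonical transcripts. By merged exons the order was not kept, since Lmod1 (4088 bases, negative) was shorter than Smtn (4456) and Des (5144), both positive. In both the Y198F comparison and the series coefficient, the 6 genes with canonical transcripts of 1385 to 3346 bases (Myl9, Tagln, Cnn1, Acta2, Des and Smtn) had positive values, and the 4 with transcripts of 4088 to 7824 bases (Lmod1, Cald1, Myh11 and Mylk) had negative ones. The same order was present over all protein-coding genes with a mean log2 CPM of at least 1. The median series coefficient went from 0.17 for transcripts under 1000 bases to -0.16 for those of 6000 bases and over, and the median Y198F value from 0.14 to -0.14. In the knockout and in Y308F, all of whose libraries are outside the 22 series, the medians went the other way, from -0.23 to 0.10 and from -0.18 to 0.11. In S205A they stayed between -0.05 and -0.01. Y198F value and class median were 1.14 and 0.12 for Tagln, 0.46 and 0.12 for Myl9, 0.31 and 0.07 for Acta2, and 0.23 and 0.07 for Cnn1. They were 0.54 and 0.02 for Smtn, 0.42 and 0.02 for Des, -0.90 and -0.05 for Cald1, and -0.48 and -0.05 for Lmod1. Myh11 and Mylk had -0.24 and -0.27, with a class median of -0.14. The spread of single genes within a class is not given here. The part of transcript length in the values of the 10 genes was not tested.

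**Figure D4:**
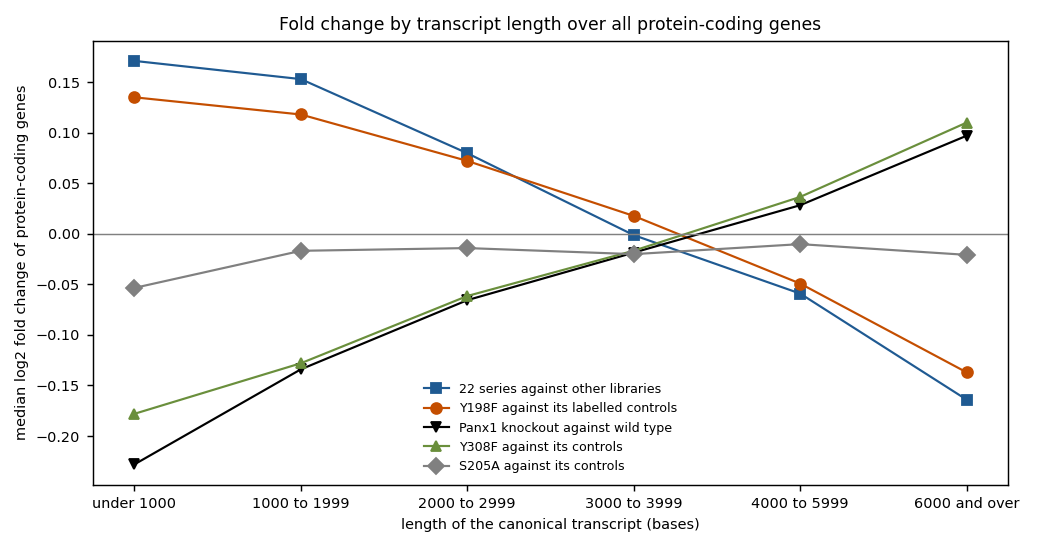
Median log2 fold change of protein-coding genes in 6 classes of canonical transcript length, for the library series and the 4 mutant comparisons. The series and Y198F lines fall with length, the knockout and Y308F lines rise from -0.23 and -0.18 to 0.10 and 0.11, and the S205A line is close to level.

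Gm48529, the noncoding RNA that covers most Tagln exons on the other strand, had no call. Its log2 fold change was -0.52 (SE 0.34, adjusted p = 0.399 by edgeR) in Y198F and its series coefficient -0.06 (SE 0.39, adjusted p = 0.956 by edgeR). It held 468 to 1374 counts per library in the 22 series and 275 to 1605 in the others, beside the 554 to 2958 of Tagln itself. Of the other genes that share exonic bases with one of the 10, Selenom, which shares 32 bases with Smtn, was higher in Y198F (0.50, SE 0.13, adjusted p = 0.0266 by edgeR), as Smtn was, and in the 22 series (0.49, SE 0.13, adjusted p = 0.0121 by edgeR), where Smtn had 0.42 without a call. Elof1, which shares 961 bases with Cnn1, had values of 0.31 and 0.43 without a call, beside 0.23 and 0.37 for Cnn1. E130310I04Rik, a noncoding RNA at 4 to 96 counts that shares 548 bases with Mylk, was lower in the series (-2.97, SE 0.49, adjusted p = 2.99e-04 by edgeR) and had -1.60 without a call in Y198F. How far shared bases set these values was not tested.

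Other genes of the contractile pathway were called in Y198F in shares on both sides of the 15.0% of all genes: 4 of 30 filament partners, 6 of 19 signalling genes and 2 of 17 transcription genes. Of the filament partners 1 was higher, the calponin paralog Cnn2 (0.50), and 3 were lower, the nonmuscle myosin gene Myh10 (-0.99), Nexn (-0.78), which encodes an actin-binding protein, and Pgm5 (-0.47), with a median of -0.02. Of the signalling genes, which set light chain phosphorylation, 3 were higher and 3 lower. The higher ones were Arhgef1 (0.55), an exchange factor for RhoA, the myosin phosphatase subunit Ppp1r12c (0.71) and the kinase gene Dapk3 (0.57). The lower ones were the protein kinase C gene Prkca (-0.67), Arhgef12 (-0.52), another RhoA exchange factor, and Calm2 (-0.45), which encodes calmodulin. Of the transcription factors and coactivators 2 were higher, Srf (0.42), whose protein binds the CArG box, and its coactivator Mrtfa (0.56). All edgeR adjusted p-values of these genes were between 0.000593 and 0.0417. For the series coefficient, beside 11.7% of all genes, 2 filament partners (Cnn2 0.64, Myh10 -0.87), 4 signalling genes (Dapk3 0.65, Ppp1r12c 0.65, Arhgef1 0.51, Arhgef12 -0.50) and 1 transcription gene (Mrtfa 0.63) passed the threshold, all of them genes called with the same sign in Y198F. Of the cell type lists, endothelial genes were called in Y198F in 4 of 10, with Cldn5 (0.59), Tie1 (0.39) and Nos3 (0.62) higher and Erg (-0.54) lower, Schwann cell genes in 3 of 8, all lower, and genes described in muscle cells that have left the contractile state in 2 of the 8 tested, Mgp (0.56) and S100a4 (2.09), both higher. S100a4 was low, at 1 to 59 counts per library, and 2 of the 8 genes of this last list had negative values. None of the 14 arterial mural genes was called, and 8 of them had negative values (median -0.06). Fibroblast genes had negative values in 9 of 10 (median -0.45) with none called. Adipocyte genes had positive values in 10 of 10 (median 1.07) with none called, and their sum was high in 1 library, at 344.7, 799.2 and 3317 CPM in the mutants and 609.6, 717 and 839.8 CPM in the controls. Their part in the values of the contractile genes was not tested.

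The Panx1 knockout comparison asks the same of a global deletion of the channel gene. None of the 10 contractile genes passed the threshold (0 by edgeR and 0 by DESeq2), beside 0.0309% of 16193 genes called, and 1 did so before adjustment, beside 11.2% of all genes. All 10 log2 fold changes were negative, with a median of -0.23 against 0.0052 for all genes. Ribosomal RNA took 2.32% to 3.09% of counts in the knockout and 4.12% to 5.84% in the wild type, without overlap, and its part in these values was not tested. Apart from Des and Cnn1, no value exceeded 2 SE.

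Des, the intermediate filament gene, had the largest difference, with 1552, 1570 and 1264 CPM in the knockout and 2017, 2425 and 1660 CPM in the wild type. It was the 1 gene of the 10 whose groups did not overlap, beside 18.3% of all genes tested. Its log2 fold change was -0.48 (SE 0.17, adjusted p = 0.383 by edgeR, the 1 gene with an unadjusted edgeR p under 0.05). The exact permutation test again gave p = 0.1. Cnn1 had 596.8, 808.9 and 548.9 CPM in the knockout against 872.1, 1091 and 664.8 CPM, an overlapping pair of groups with a log2 fold change of -0.43 (SE 0.20, adjusted p = 0.472 by edgeR). Of the filament and motor genes, Myl9 stood at -0.29 (SE 0.17), Acta2 at -0.26 (SE 0.22) and Myh11 at -0.23 (SE 0.26). Lmod1 stood at -0.22 (SE 0.19), Cald1 at -0.16 (SE 0.23) and Smtn at -0.15 (SE 0.16). Tagln at -0.06 (SE 0.11) and the kinase gene Mylk at -0.02 (SE 0.20) were closest to 0.

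Single libraries of both groups moved these values. The median of the contractile genes was -0.38 without wild type 3, -0.09 without wild type 2 and -0.12 without knockout 3. At an unadjusted p under 0.05 there were 7 of them without wild type 3, beside 11.6% of all genes, and 0 without wild type 2 or knockout 3, and none of the 10 was called in any of these fits. Wild type 3 had the lowest summed level of the 10 genes, 28694 CPM, beside 40933 and 48575 CPM in the other wild-type libraries and 34796, 36957 and 29020 CPM in the knockout. Its summed adipocyte genes were the highest of all 26 libraries at 4366 CPM, and all 10 adipocyte genes had negative values in the knockout comparison (median -1.43, none called). Of the 14 arterial mural genes 4 had negative values in the knockout (median 0.12). Filament partners were negative in 25 of 30 genes (median -0.14), signalling genes in 13 of 19 (median -0.05) and transcription genes in 6 of 17 (median 0.08), with none called. Striated muscle genes summed to 23.15 to 28.71 CPM in the knockout and 34.79 to 56 CPM in the wild type. They were negative in 6 of the 8 tested (median -0.82), and leukocyte genes in 0 of 8 (median 0.35), with none called. The part of these lists in the values of the contractile genes was not tested.

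In S205A, 0 of 15709 genes (0%) were called by edgeR, with 451 at an unadjusted p under 0.05, and none of the 10 contractile genes had an unadjusted p under 0.05. DESeq2 called 96 genes and none of the 10. The median of the 10 was -0.08 against -0.01 for all genes, and no gene's groups were separated, beside 1.75% of all genes. Des had the largest value, -0.21 (SE 0.23), with 1834, 2137, 1885 and 2585 CPM in the mutants and 3326, 1788, 2853 and 1814 CPM in the controls. The other 9 genes had values between -0.12 (Lmod1) and 0.10 (Cnn1), with SEs from 0.19 to 0.39. The SE was largest for Tagln, and for all 10 genes both groups hold libraries of both series. Within the 6 libraries of the 22 series the median was -0.11 and again none was called. Without S205A control 1, the library low in endothelial genes, the median of the 10 went from -0.08 to 0.09 with 8 of 10 positive, Acta2 went from -0.02 to 0.21 and Myl9 from -0.06 to 0.16, uncalled throughout. Without S205A control 2 the median went the other way, to -0.197 with 10 of 10 negative, and without S205A mutant 4 it was -0.154 with 9 of 10 negative, again with none called. Fibroblast genes had negative values in 1 of 10 (median 1.43) and Schwann cell genes in 1 of 8 (median 0.89). Adipocyte genes had them in 9 of 10 (median -0.42) and arterial mural genes in 7 of 14 (median 0.0018), with none called. The part of these lists in the contractile values was not tested.

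In Y308F, 0 of 16037 genes (0%) were called by edgeR, with 706 at an unadjusted p under 0.05, none of the 10 had an unadjusted p under 0.05, and DESeq2 likewise called no gene. The median of the 10 was -0.07 against -0.025 for all genes, and no gene's groups were separated, beside 10.6% of all genes. The sign of this median depended on single libraries: without Y308F control 1 it was -0.26, with 10 of 10 negative and 2 genes, Des and Myl9, at an unadjusted p under 0.05 (7.42% of all genes), and without Y308F control 3 it was 0.09, with 7 of 10 positive, with none called in either. Myl9 had 3942, 3073 and 3207 CPM in the mutants and 3254, 4773 and 4842 CPM in the controls, a log2 fold change of -0.34 (SE 0.22). Des at -0.33 (SE 0.20) and Cnn1 at -0.28 (SE 0.24) had the next lowest values. Acta2 stood at -0.13 (SE 0.25) and Smtn at -0.12 (SE 0.23). Myh11, Mylk, Cald1, Lmod1 and Tagln lay between -0.02 and 0.05. Y308F control 1, with 1948 CPM of Mylk and 7928 CPM of Acta2, was the lowest control for 10 of 10 genes and had 11039 CPM of endothelial genes beside 4780 and 5438 CPM in the other controls, and 7.09% of ribosomal RNA beside 3.28% and 3.29%.

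The differences between mutations were tested directly in a fit of all 8 groups. None of the 10 genes passed the edgeR threshold in any of the 6 pairs. The share of all 18715 genes that did was 0.577% between knockout and Y198F, 0.0160% between Y198F and S205A, 0.0107% between knockout and S205A and between knockout and Y308F, and 0% in the other 2 pairs. With any single library of the knockout or Y198F line left out, the first of these shares was 0.0154% to 0.220%. Before adjustment, 4 of the 10 had a p under 0.05 between knockout and Y198F, beside 19.7% of all genes at such a p, 4 between Y198F and S205A, beside 18.0%, and 5 between Y198F and Y308F, beside 17.6%. In the other 3 pairs there were 0. Within these 3 pairs the gene with the smallest adjusted p of the 10 by edgeR was Des between knockout and Y198F, at a difference of -0.93 (SE 0.30, adjusted p = 0.0924), Tagln between Y198F and S205A, at 1.25 (SE 0.47, adjusted p = 0.165), and Myl9 between Y198F and Y308F, at 0.82 (SE 0.31, adjusted p = 0.168). Among larger differences with larger p-values were those of Tagln between knockout and Y198F, -1.23 (SE 0.50), and between Y198F and Y308F, 1.13 (SE 0.50). A fit of only the 4 groups of the pair called 4 genes whose change from control was lower in knockout than in Y198F (Tagln, Smtn, Des and Myl9), beside 11.6% of 17347 genes. Between Y198F and Y308F it called 1, Cald1, whose change from control was lower in Y198F, beside 5.70% of 17190 genes. Without S205A control 4 the fit of all groups called Tagln and Cald1 between Y198F and S205A, beside 9.75% of 18646 genes. Without S205A control 1 the median difference of the 10 between Y198F and S205A went from 0.24 to 0.0179, and 2 genes in place of 4 had an unadjusted p under 0.05, beside 17.0% of all genes. When the series was added as a covariate, 0 of the 10 were at such a p in every pair, and all 3 pairs with Y198F hold the confounding with the series described above.

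In the authors' deposited table for Y198F none of the 10 genes was past an adjusted p of 0.05, and Cald1 had a log2 fold change of -0.47 (adjusted p = 0.724) and Tagln of 0.11 (adjusted p = 0.98). The values of that table for the 10 genes equalled a DESeq2 contrast of Y198F with the 4 S205A controls to within 7.24e-07, and differed by up to 1.02 from a contrast with the labelled Y198F controls. In the authors' deposited tables for the other 3 comparisons the values matched the labelled controls, and again none of the 10 was past the threshold.

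The 10 genes varied together among libraries of a single group. Log2 CPM was centred within each group and series, which left 24 libraries. Every one of the 45 gene pairs had a Pearson r over 0.5, with a median of 0.841, a lowest value of 0.631 (Tagln with Cald1) and a highest of 0.965. Over all 83314686 pairs of the 12909 genes with a mean log2 CPM of at least 1 the median was 0.00, and 2.33% of pairs were at or above the lowest of the 10 genes. Without S205A control 1, the library farthest above its group mean, an alternative added after seeing the data, all 45 pairs were again over 0.5, with a median of 0.818 and a lowest value of 0.571 over 23 libraries. These r describe points that share library, scaling and depth. Acta2 was closest to the mean of the 10 (r = 0.982), and Tagln (0.853) and Cald1 (0.856) were farthest from it.

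In 13 of the 24 libraries all 10 genes lay on the same side of their group mean. The highest was S205A control 1, where the mean deviation was 0.40 on the log2 scale and single genes ran from 0.30 (Cald1) to 0.48 (Acta2), and the lowest was S205A control 2 at -0.45, with genes from -0.54 (Cnn1) to -0.25 (Cald1). These libraries were also the extremes for endothelial genes in the opposite direction, with mean deviations of -1.46 and 1.12. Y308F control 1 and wild type 3 came next lowest in the contractile genes, at -0.39 and -0.34. Their endothelial deviations were 0.66 and -0.30 and their adipocyte deviations 0.50 and 1.76. Over the 24 libraries the leukocyte list deviated in the direction opposite to the contractile genes in 18, the adipocyte list in 17, and the endothelial, fibroblast and Schwann cell lists in 14 each. Whether the share of other cells sets the level of the contractile genes was not tested.

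**Figure D5:**
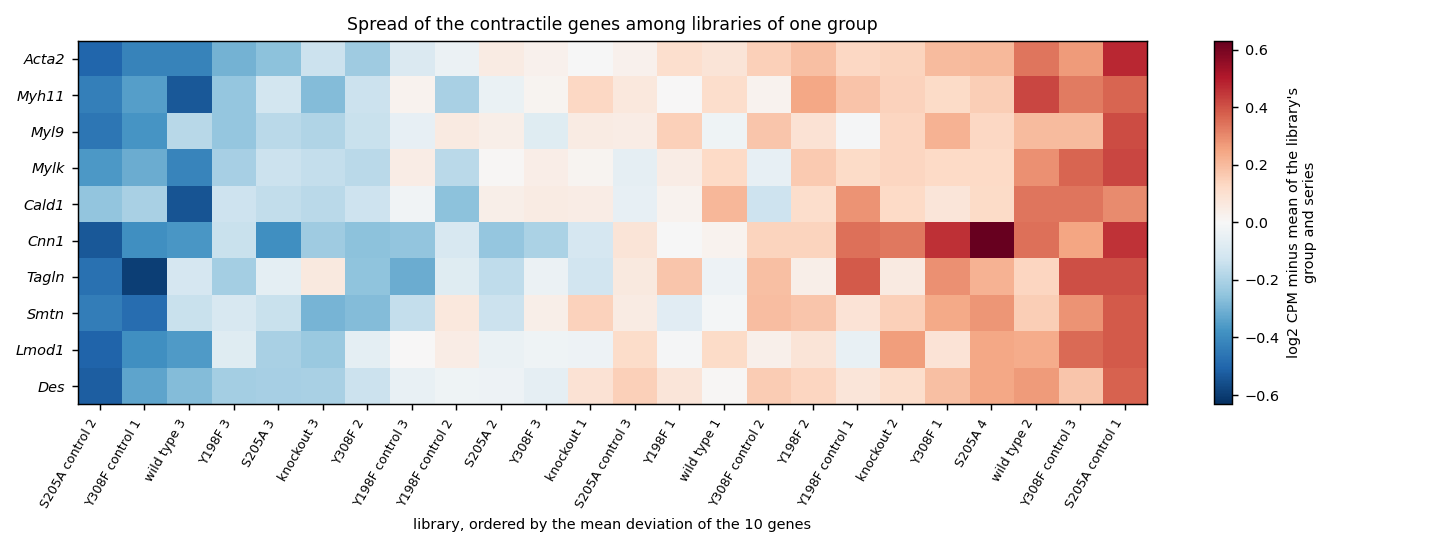
Deviation of each contractile gene (rows) in each of 24 libraries (columns) from the mean log2 CPM of the library's group and series, with libraries ordered by the mean of the 10 genes. Columns are mostly of a single colour, from S205A control 2 at a mean of -0.45 to S205A control 1 at 0.40.

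The genes outside the 10 whose centred levels followed their mean most closely were Actn1 (r = 0.974), Tpm1 (0.973), Flna (0.970), Csrp1 (0.969) and Tpm2 (0.968), out of 12899 genes over 24 libraries. Actn1 encodes an actinin and Flna filamin A, which both cross-link actin, Tpm1 and Tpm2 encode tropomyosins of the thin filament, and Csrp1 a LIM protein of smooth muscle. Spearman's rho of the 5 was between 0.950 and 0.977, and without S205A control 1 their Pearson r was between 0.962 and 0.972. All 5 are on the list of filament partners, a list drawn up with earlier results of these data known.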

How the data were processed

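Poly(A) RNA of mesenteric arteries was sequenced as paired reads of 150 bases. Reads were aligned with STAR 2.7.9a and counted with Rsubread 2.20.0, per the submitters' processing notes; the annotation release and strand setting are not given in the sources used here. The authors deposited counts per gene for 26 libraries, a normalized table whose values are a signal (counts divided by DESeq2 size factors), and tables of their own comparisons (DESeq2 1.46.0). In those tables the authors deposited log2 fold changes, a test statistic (a score without a fixed range) and p-values.

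From the counts, edgeR 4.0.16 (limma 3.58.1, R 4.3.3) was used with TMM scaling, filterByExpr and the quasi-likelihood test, fitted over all genes of the 2 groups of a comparison, with Benjamini-Hochberg adjustment and a threshold of 0.05. CPM were scaled by TMM over all libraries, with a prior count of 2 on the log2 scale. Interactions and the library series were tested over all 8 groups. Gene models were GENCODE vM39 on GRCm39, to which 56310 of 57010 gene IDs were matched. The scripts were tested on simulated data. Replicates were different samples: over 30 pairs within groups, chi-square per degree of freedom was between 15 and 159. Replicate numbers were not used as pairs in the main fits. Alternatives were DESeq2 1.42.0, its size factors, no filter, a replicate block, a series term, series-matched controls and leaving out each library. The contractile genes and the other lists were chosen with earlier results of these data known. Outside the 10, genes were named by rule: at most 3 per direction and list with the smallest adjusted p, genes overlapping a contractile gene, markers whose sum moved with a result, and the 5 genes of most similar pattern.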

Additional observations from a re-analysis of the deposited data

Results flagged for a closer look

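A single library stood far from the others of its group: Cnn1, the calponin gene, had 1559 CPM in S205A mutant 4 and 847, 849 and 770 CPM in the other S205A mutants. In the 2 groups of 4 libraries, 20 sets of values (10 genes in each group) were examined by the gap to the nearest library relative to the range, and chance marks about 1 in 20 such sets. In the same library the other 9 contractile genes also lay above the mean of their group and series, the adipocyte genes summed to 119 CPM, the lowest of all libraries, and the striated muscle genes summed to 115.2 CPM, against at most 67.42 CPM in any other. Its Actg2, an actin gene of gut and vascular muscle, was the highest at 1391 CPM, while the other 6 genes of the gut muscle list summed to 4.11 CPM, the lowest of all libraries. The part of these in the Cnn1 value was not tested.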

How the results depend on the processing

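The 4 calls in Y198F depended on the fit: 0 contractile genes were called in a fit of all 8 groups, 0 with the library series as a term, 0 against the 3 S205A controls of the 22 series, 0 against controls 2 and 3 of these (added after seeing the data) and 2 by DESeq2 (7.73% of all genes called), against 6 without a filter on low counts (3158 of 28760 genes), while leaving out single libraries gave 2 to 6 (5.43% to 12.8%). With the series as a term the log2 fold changes turned negative for Acta2 (-0.04), Tagln (-0.16), Cnn1 (-0.13) and Myl9 (-0.01), and Tagln crossed 0 between knockout and Y198F (0.08), Y198F and S205A (-0.06) and Y198F and Y308F (-0.18). Against the series-matched controls they turned negative for Acta2 (-0.15), Tagln (-0.12), Cnn1 (-0.20), Smtn (-0.20), Des (-0.26) and Myl9 (-0.13), and without S205A control 1 among these, only for Des (-0.06). A fit of 4 groups called 4 genes between knockout and Y198F (11.6% of all genes) and 1 between Y198F and Y308F (5.70%), where the fit of all groups called 0 (0.577% and 0%). Without single libraries the count was 0 to 2 between Y198F and S205A (0% to 9.75% of all genes) and 0 to 2 for the library series (1.51% to 12.9%). The causes were not tested.

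With the replicate block the number of contractile genes called was 4 in Y198F and 0 in the other 3 comparisons, as without it. The background did change: in Y198F 1760 of 16050 genes were called with the block, against 2411 without it. In the knockout 18 of 16193 genes were called with the block, against 5 without it. In S205A and Y308F the number over all genes was 0 with and without the block. Values near 0 crossed it for Mylk in the knockout (0.0021), Acta2 in S205A (0.02) and Myh11 in Y308F (0.0023). Same-numbered libraries had correlations of -0.42 to 0.427, which cannot decide in groups this small whether the numbers pair the samples.

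Leaving out 1 library moved uncalled values across 0. In the knockout, Mylk ran from -0.19 to 0.12. In S205A, the ranges were -0.16 to 0.21 for Acta2, -0.24 to 0.02 for Myh11, -0.34 to 0.16 for Tagln, -0.19 to 0.31 for Cnn1, -0.33 to 0.22 for Cald1, -0.23 to 0.09 for Smtn, -0.28 to 0.0015 for Lmod1, -0.17 to 0.10 for Mylk and -0.21 to 0.16 for Myl9. In Y308F, they were -0.31 to 0.0034 for Acta2, -0.17 to 0.16 for Myh11, -0.21 to 0.24 for Tagln, -0.04 to 0.24 for Cald1, -0.32 to 0.03 for Smtn, -0.15 to 0.20 for Lmod1 and -0.11 to 0.24 for Mylk.

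Over all genes, the number called in the knockout was 5, against 243 without a filter, 20 by DESeq2 and 18 with the block. In Y198F it was 2411, against 1531 by DESeq2, 922 in the fit of all groups, 908 without Y198F control 3 and 1546 without Y198F control 1, and in Y308F 0, against 7 without a filter. For the library series it was 2189, against 902 in the S205A line alone, 282 without S205A control 4 and 932 without S205A mutant 1. Of 240 values of the 40 mutant fold changes under settings that kept the libraries of each group, 222 kept direction and call, as did 17 of 30 with other controls or only the 22 series. Depth was not a limit, since the lowest count of any of the 10 genes was 554, but groups of 3 cannot give an exact p below 0.1.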
